A study of Homo sapiens with 6 samples.

Results

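The AP-1 and immediate early genes comprised 10 genes chosen by name, FOS, FOSB, FOSL1, FOSL2, JUN, JUNB, JUND, EGR1, IER3 and MYC, among the 20042 genes of the count table. The 10 genes were chosen with earlier results of these data known. All 10 had a row in the table and all 10 passed the filter on low counts, as did 12440 genes in all. FOSB passed only through its siRNA-1 libraries. Transcripts were counted by RNA sequencing in MDA-MB-231, an established breast cancer cell line that lacks the oestrogen and progesterone receptors. The genotype label was ERBBride knock down for 3 cultures that received siRNA-1 against ERBBride, and WT for 3 cultures that received control siRNA (siCTRL). The cultures are labelled as biological replicates, with no word on how they were separated, so p-values measure the spread between these samples. One siRNA was used against the target, and what else it acts on cannot be told apart from the loss of ERBBride. No row of the table bears the name ERBBride, and its own level was not analysed here.

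Immediate early genes are transcribed within minutes of a stimulus, from factors already present in the cell and with no need for new protein. AP-1 is a dimer of basic leucine zipper (bZIP) proteins: JUN proteins pair with each other or with FOS proteins, whereas FOS proteins need a JUN partner to bind DNA. In cells with an active ERK pathway, such as MDA-MB-231, ERK signalling keeps FOSL1 high, and FOSL1 with JUN is tied to the invasive state of basal-like breast cancer. EGR1 is a zinc finger factor induced through the serum response factor SRF, IER3 encodes a short stress-response protein, and MYC is the partner of MAX that drives growth genes.

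The control regions of these genes are shown because rapid transcription after a stimulus is the feature that defines the class. The RefSeq promoter table (GRCh38.p14) held 7 of the 10 genes, each as a window of 300 bases from 250 before to 50 after the annotated start, and the windows of FOS, FOSB, JUNB, EGR1 and JUN are printed 5′ to 3′ on the gene's strand. Capitals mark matches, on either strand, to the CArG box (the core of the SRF site), to the AP-1 sites TGANTCA and TGACNTCA, to the EGR site GCGNGGGCG, to the E-box CACGTG bound by MYC with MAX, to the ETS site CCGGAAG and to TATAAA. None of the matches in these genes overlapped another motif.
FOS, chr14:75278578-75278877, plus strand: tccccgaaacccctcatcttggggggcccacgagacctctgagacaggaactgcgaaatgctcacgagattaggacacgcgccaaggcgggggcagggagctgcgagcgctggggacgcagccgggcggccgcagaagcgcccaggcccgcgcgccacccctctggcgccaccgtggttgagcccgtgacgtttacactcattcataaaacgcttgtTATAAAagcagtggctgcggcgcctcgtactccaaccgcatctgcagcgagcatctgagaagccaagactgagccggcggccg
FOSB, chr19:45467746-45468045, plus strand: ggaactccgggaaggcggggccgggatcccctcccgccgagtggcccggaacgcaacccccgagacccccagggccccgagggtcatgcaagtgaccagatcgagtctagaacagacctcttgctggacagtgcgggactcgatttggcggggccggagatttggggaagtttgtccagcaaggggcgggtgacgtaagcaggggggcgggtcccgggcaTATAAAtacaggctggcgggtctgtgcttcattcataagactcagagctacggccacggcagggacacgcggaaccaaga
JUNB, chr19:12791236-12791535, plus strand: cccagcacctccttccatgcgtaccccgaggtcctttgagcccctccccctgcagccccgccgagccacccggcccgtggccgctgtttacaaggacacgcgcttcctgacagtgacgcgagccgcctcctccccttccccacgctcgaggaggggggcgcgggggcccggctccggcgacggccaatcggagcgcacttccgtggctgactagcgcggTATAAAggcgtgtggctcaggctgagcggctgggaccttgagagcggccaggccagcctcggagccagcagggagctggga
EGR1, chr5:138465229-138465528, plus strand: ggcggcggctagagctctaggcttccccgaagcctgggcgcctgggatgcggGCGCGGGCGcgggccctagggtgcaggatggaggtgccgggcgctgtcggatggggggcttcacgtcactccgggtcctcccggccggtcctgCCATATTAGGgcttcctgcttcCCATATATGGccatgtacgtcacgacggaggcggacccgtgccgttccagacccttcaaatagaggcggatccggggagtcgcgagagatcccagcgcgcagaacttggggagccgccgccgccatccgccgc
JUN, chr1:58783998-58784297, minus strand: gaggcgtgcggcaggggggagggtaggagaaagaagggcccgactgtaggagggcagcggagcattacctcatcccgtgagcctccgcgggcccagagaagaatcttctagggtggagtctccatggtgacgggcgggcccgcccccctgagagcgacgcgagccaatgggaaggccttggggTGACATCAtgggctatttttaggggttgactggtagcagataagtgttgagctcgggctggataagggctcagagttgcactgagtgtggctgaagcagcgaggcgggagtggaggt

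TATAAA lay at position -33 in FOS, -30 in FOSB and -31 in JUNB, counted from the annotated start, and 11.5% of 35116 RefSeq windows of this length held it. FOS, FOSB and JUNB were 3 of the 4 genes with a window that were higher in siRNA-1 cells. The other, FOSL2, had TGANTCA at position 5 and no TATAAA. The genes with a window that were lower (EGR1 and JUN) or did not pass the test (JUND) held no TATAAA. FOSL1, IER3 and MYC, which were also lower, had no window, so most of the lower genes could not be looked at. Any link between these motifs and the direction of change was not tested. EGR1 carried 2 CArG boxes, at positions -105 and -83, where 1.29% of all windows had 1 or more, and a site of the EGR type at -198 (9.43% of windows). JUN held TGACATCA at -67 and JUND TGACGTCA at -200, both of the TGACNTCA form found in 7.72% of windows, while TGANTCA was found in 7.71%. CACGTG (7.26% of windows) and CCGGAAG (10.3%) were in none of the 7 windows. These matches are letters in a short window and do not show binding. Sites farther from the start lie outside the windows and were not looked at, so a window without a motif does not mean a gene without one.

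Messenger RNAs of this class are also known for rapid decay, directed by AU-rich elements with the core ATTTA in the 3′ untranslated region. In the longest basic coding transcript of GENCODE 29, all 10 genes held ATTTA there, from 1 copy in EGR1, FOSL1 and JUND to 9 in the long region of FOSL2. The density was 8.40 per kb in MYC, 6.64 in IER3, 6.20 in FOS, 4 in JUNB, 2.33 in JUN and 1.85 in FOSL2, where the median of 12214 tested genes was 1.73 per kb. It lay below that median in the other 4, with 1.502 in FOSL1, 1.47 in JUND, 1.39 in FOSB and 0.810 in EGR1. The longer form TATTTAT was found in 7 of the 10 and in 36.1% of tested genes, without regard to the length of the region. Windows of 30 bases with 2 copies are printed for FOS, which rose, and IER3, which fell, with ATTTA in capitals. Any part of the element in these changes was not tested.
FOS, 3′ untranslated bases 623 to 652: aaacgttttattgtgtttttaATTTATTTA
IER3, 3′ untranslated bases 418 to 447: ttgctcctaattaatATTTAtatgtATTTA

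Libraries held 12813706 to 15014434 counts, and 3 counts corresponded to 0.199 to 0.233 CPM (counts scaled to library size), which allows for counting error alone. CPM values carry edgeR's TMM scaling, fold changes are siRNA-1 over siCTRL, and changes were called with edgeR's quasi-likelihood test at an adjusted p under 0.05 over all genes tested. In bulk samples fewer cells of a kind and less RNA per cell cannot be told apart. VIM was high in every library, with 1643 to 1698 CPM in siRNA-1 and 2564 to 2711 CPM in siCTRL libraries. So was CD44, with 839 to 874 CPM in siRNA-1 and 1258 to 1515 CPM in siCTRL libraries. AXL had 523 to 565 CPM in siRNA-1 and 1199 to 1245 CPM in siCTRL libraries. ZEB1 had 70.0 to 85.2 CPM in siRNA-1 and 76.6 to 105 CPM in siCTRL libraries. SPARC, also on the list of mesenchymal markers, was at most 1.02 CPM. PGR had no count and ESR1 had 6 counts over all libraries. ERBB2 had 63.2 to 69.5 CPM in siRNA-1 and 79.0 to 79.9 CPM in siCTRL libraries. The epithelial marker EPCAM had 5.10 to 5.59 CPM in siRNA-1 and 13.9 to 18.2 CPM in siCTRL libraries, and CDH1 had 0.397 to 0.559 CPM in siRNA-1 and 1.64 to 3.11 CPM in siCTRL libraries. Among haematopoietic markers, CD3E and HBB were at 0, PTPRC was at most 0.861 CPM and CD14 had 7.19 to 19.1 CPM. Of 4 endothelial markers, CDH5 was at 0, VWF and TEK were at most 0.349 CPM and PECAM1 had 3.68 to 8.39 CPM. CD14 was 7.19 to 8.04 CPM in siRNA-1 and 14.5 to 19.1 CPM in siCTRL libraries, PECAM1 was 3.68 to 4.75 CPM in siRNA-1 and 6.62 to 8.39 CPM in siCTRL libraries, and the part of these markers in the results was not tested. The library siCTRL 2 stood apart from the other controls: the chi-square per degree of freedom between its counts and theirs was 11.4 and 11.5, against 2.13 to 2.40 for every other pair of replicates.

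Of the 10 genes, 4 were higher (FOS, FOSB, FOSL2 and JUNB) and 5 were lower (FOSL1, JUN, EGR1, IER3 and MYC) in siRNA-1 cells, and JUND did not pass the test. Across the transcriptome 62.5% of genes tested were called, 31.5% higher and 31% lower, so that calls in both directions were the rule among all genes too. The groups did not overlap at 9 of the 10 genes and at 67.6% of all genes tested. The median log2 fold change of the 10 was -0.24, against 0.01 over all genes tested. EGR1, IER3 and FOSB moved at least 2-fold, as did 10.2% of all genes tested, and the other 6 called genes moved between 1.16-fold and 1.73-fold. The numbers of higher and lower genes were the same without siCTRL 2.

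**Figure D1:**
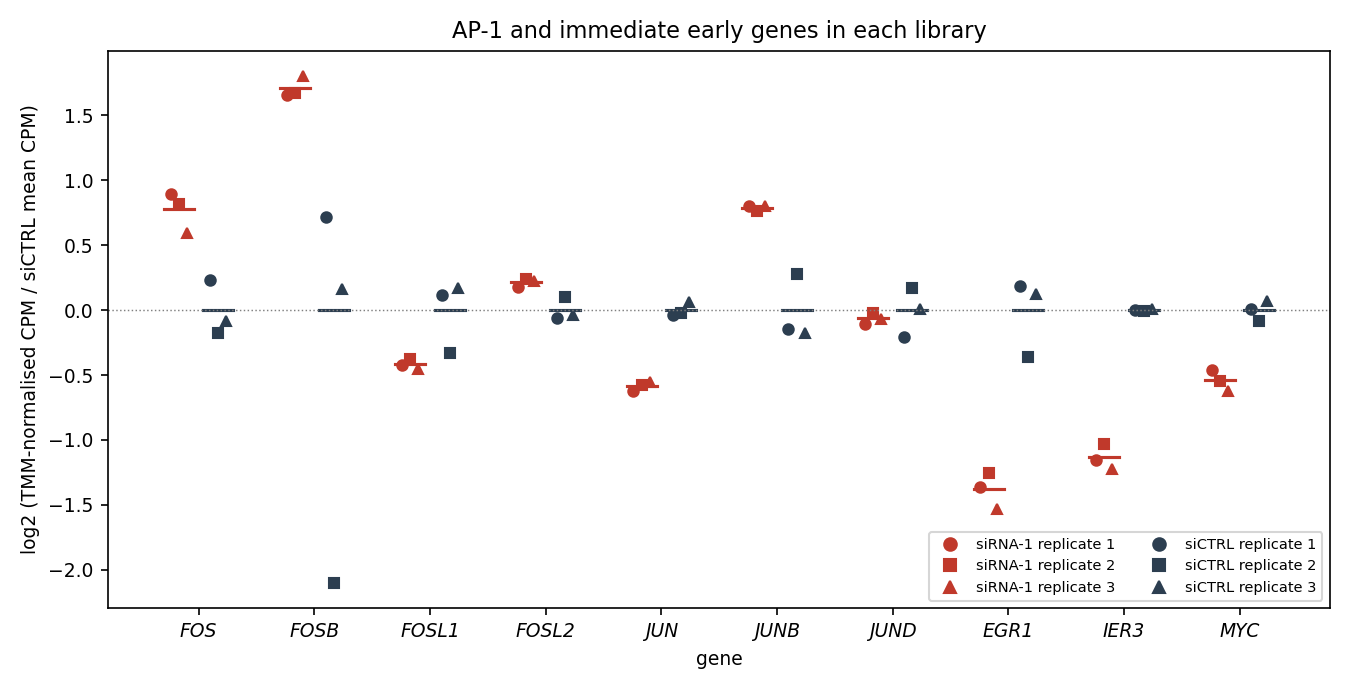
Log2 of the TMM-normalised CPM of each gene in each library over the siCTRL mean, with siRNA-1 libraries in red and siCTRL libraries in dark blue, marker shape for the replicate and a bar for the group mean. The red points lie above all dark points for FOS, FOSB, FOSL2 and JUNB and below them for FOSL1, JUN, EGR1, IER3 and MYC, and siCTRL 2 (dark squares) is the control farthest from the others for FOSB, FOSL1, FOSL2, JUNB, EGR1, MYC and, by a small margin, IER3.

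FOSL1, which encodes FRA-1, was the highest FOS gene per kb of exon in both groups, although its CPM was close to that of FOSL2 in siRNA-1 cells. It had 230, 237 and 225 CPM in siRNA-1 replicates 1 to 3, against 333, 245 and 346 CPM in siCTRL 1 to 3. The control siCTRL 2 lay close to the siRNA-1 libraries, and the other controls lay well above them. FOSL1 fell 1.34-fold (log2 fold change -0.42, SE 0.10, adjusted p = 0.00397, edgeR), and without siCTRL 2 the log2 fold change was -0.57.

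FOSL2, the gene of FRA-2, moved the other way. It had 228, 238 and 236 CPM in siRNA-1 libraries and 193, 215 and 196 CPM in siCTRL libraries, with no overlap and siCTRL 2 the nearest control. The rise was small at 1.16-fold (log2 fold change 0.22, SE 0.06, adjusted p = 0.00584, edgeR).

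FOS and FOSB, the classical serum-induced members, had few counts in both groups. FOS had 42, 42 and 35 counts (2.93, 2.78 and 2.39 CPM) in siRNA-1 libraries, against 27, 18 and 20 counts (1.85, 1.40 and 1.49 CPM) in siCTRL libraries. It rose 1.70-fold (log2 fold change 0.77, SE 0.23, adjusted p = 0.0123, edgeR), and this call was lost at a threshold of 0.01. FOSB, whose protein also exists in a short form without the C-terminal activation domain, had 30, 32 and 34 counts in siRNA-1 libraries, against 16, 2 and 10 in siCTRL libraries. These are 2.10, 2.12 and 2.32 CPM in siRNA-1 cells, against 1.09, 0.155 and 0.743 CPM in siCTRL cells, where siCTRL 2 lay below the level of 3 counts. FOSB rose 3.17-fold (log2 fold change 1.66, SE 0.40, adjusted p = 0.00326, edgeR), with log2 fold changes of 1.21 without siCTRL 2 and 2.22 without siCTRL 1. It passed the filter on low counts only through the siRNA-1 libraries, the group where it was higher, which limits this call. Counts per gene do not separate the splice forms of FOSB.

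JUN, the partner that gives AP-1 most of its activating strength, had 158, 163 and 166 CPM in siRNA-1 libraries, against 236, 239 and 254 CPM in siCTRL libraries. Replicates were close in both groups, with coefficients of variation of 2.56% in siRNA-1 and 3.89% in siCTRL. JUN fell 1.499-fold (log2 fold change -0.58, SE 0.05, adjusted p = 2.12e-06, edgeR).

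JUNB, a weaker activator that can restrain JUN, had 88.8, 86.3 and 88.4 CPM in siRNA-1 libraries, against 45.8, 61.7 and 44.9 CPM in siCTRL libraries. All siRNA-1 values were above the highest control, which was siCTRL 2. JUNB rose 1.73-fold (log2 fold change 0.79, SE 0.10, adjusted p = 3.29e-05, edgeR). Exons of HOOK2 on the opposite strand cover 14.2% of the exonic bases of JUNB, and it is not known here whether reads were counted by strand. HOOK2 had 11.6, 11.7 and 13.6 CPM in siRNA-1 libraries and 17.4, 16.7 and 17.9 CPM in siCTRL libraries. Any part of the overlap in the JUNB values was not tested.

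JUND, the most steadily expressed JUN gene in most cells, had 105, 111 and 108 CPM in siRNA-1 libraries, against 97.5, 127 and 113 CPM in siCTRL libraries. The siRNA-1 values lay within the range of the controls. Its log2 fold change of -0.06 (SE 0.08) did not pass the test (adjusted p = 0.533, edgeR), with a 95% interval from -0.24 to 0.12 that leaves out changes of the size seen in JUN and JUNB. Without siCTRL 2 the estimate was 0.02.

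EGR1 had 6.64, 7.15 and 5.93 CPM in siRNA-1 libraries, against 19.4, 13.3 and 18.6 CPM in siCTRL libraries. It was the gene of the group that fell the most, 2.61-fold (log2 fold change -1.38, SE 0.16, adjusted p = 1.09e-05, edgeR), and the lowest control was again siCTRL 2. Without that library the log2 fold change was -1.55.

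IER3 had 210, 229 and 200 CPM in siRNA-1 libraries, against 467, 465 and 468 CPM in siCTRL libraries. The controls differed by a coefficient of variation of 0.353%, the smallest among the 10 genes, and that of siRNA-1 was 6.88%. IER3 fell 2.19-fold (log2 fold change -1.13, SE 0.06, edgeR adjusted p = 2.08e-08), with the smallest p of the 10 and rank 166 among all genes tested. The antisense gene IER3-AS1, not analysed here, covers 26.5% of its exonic bases on the opposite strand.

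MYC had 127, 119 and 113 CPM in siRNA-1 libraries, against 175, 165 and 183 CPM in siCTRL libraries. All siRNA-1 values were below all controls. MYC fell 1.45-fold (log2 fold change -0.54, SE 0.06, adjusted p = 1.29e-05, edgeR).

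Levels of different genes were set side by side per kb of exon, as TMM-normalised CPM divided by the length of all annotated exons. IER3 and FOSL1 led in both groups, with 157 ± 10.8 and 122 ± 3.32 CPM per kb in siRNA-1 cells, against 344 ± 1.21 and 163 ± 29.2 CPM per kb in siCTRL cells (SD, n = 3 each). In siRNA-1 cells the order went on with JUND (57.8), JUNB (48.3), JUN (45.8), MYC (39.9), FOSL2 (32.7), EGR1 (2.09), FOS (0.834) and FOSB (0.392 CPM per kb), and the ranges of neighbours did not overlap. In siCTRL cells it went on with JUN (68.7), JUND (60.5), MYC (58.1), FOSL2 (28.1), JUNB (27.9), EGR1 (5.45), FOS (0.487) and FOSB (0.120 CPM per kb). There the ranges of JUN and JUND, of JUND and MYC, and of FOSL2 and JUNB overlapped, so those neighbours were not separated. JUNB thus had rank 4 in siRNA-1 cells and rank 7 in siCTRL cells, and JUN had rank 5 in siRNA-1 cells and rank 3 in siCTRL cells.

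**Figure D2:**
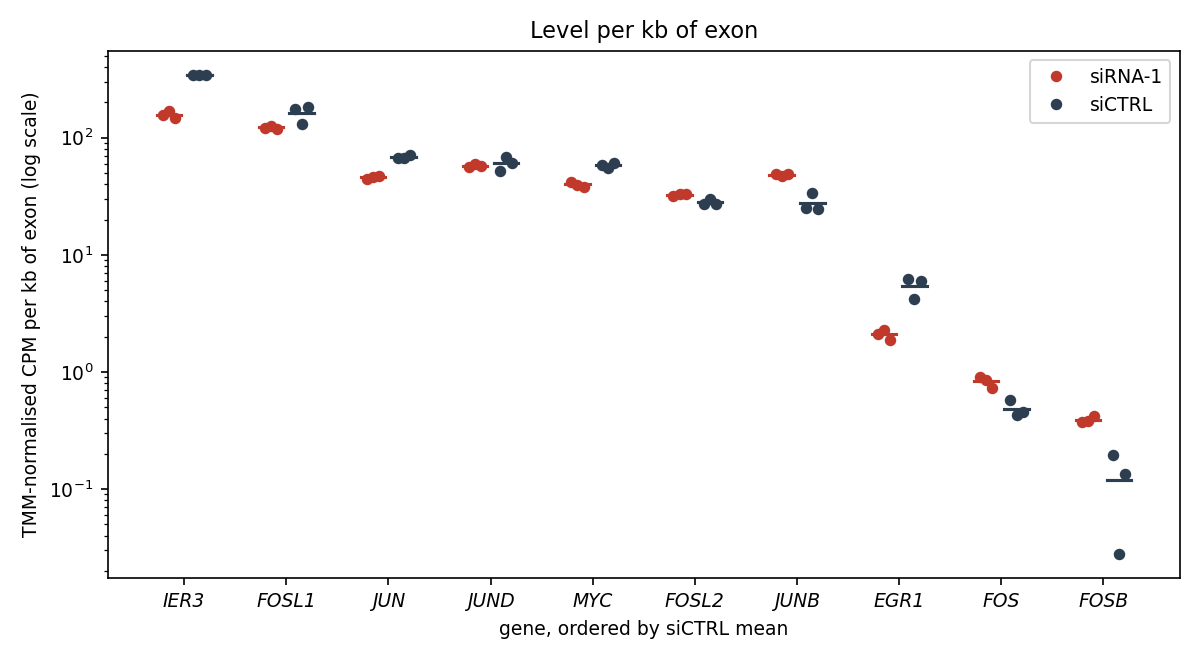
TMM-normalised CPM per kb of exon on a log axis for each gene, ordered by the siCTRL mean, with 1 point per library and a bar for the group mean. IER3 and FOSL1 are the highest in both groups, EGR1, FOS and FOSB are far below the other genes, and the siRNA-1 points of JUNB sit above those of JUN while its siCTRL points sit below.

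Within the JUN family, the shares of JUN and JUNB in the summed level per kb stood apart between the groups. JUNB made up 32.6%, 31.0% and 31.7% of the family in siRNA-1 libraries, against 17.5%, 19.99% and 15.7% in siCTRL libraries, a difference of 14.1 percentage points. JUN made up 29.8%, 30.01% and 30.6% in siRNA-1 libraries and 46.3%, 39.8% and 45.6% in siCTRL libraries, a difference of -13.7 points. For both genes the groups did not overlap, and the exact permutation test (two-sided) gave p = 0.1, the smallest that 3 against 3 libraries allow (adjusted p = 0.117 over the 7 genes). JUND held 38.1% ± 0.803 in siRNA-1 and 38.4% ± 1.98 in siCTRL libraries (SD, n = 3 each, exact permutation p = 1). The summed level of the family was 152 ± 2.10 CPM per kb in siRNA-1 cells and 157 ± 12.7 CPM per kb in siCTRL cells (exact permutation p = 0.7). Per kb of exon the family as a whole thus differed by less than its spread, and its direction turned without siCTRL 2 (log2 ratio -0.05 with all libraries, 0.01 without). This depends on the scaling: with counts not divided by length, the sum was lower in every siRNA-1 library than in every control.

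Within the FOS family, FOSL1 held 78.6%, 78.5% and 77.7% of the level per kb in siRNA-1 libraries, against 86.4%, 80.9% and 86.8% in siCTRL libraries. FOSL2 held 20.5%, 20.7% and 21.5% in siRNA-1 libraries and 13.2%, 18.8% and 12.9% in siCTRL libraries. The groups did not overlap for either gene, with siCTRL 2 nearest to siRNA-1 in both (exact permutation p = 0.1, adjusted p = 0.117). FOS and FOSB together stayed under 1% in every library: FOS held 0.533% ± 0.0515 in siRNA-1 and 0.255% ± 0.0333 in siCTRL, and FOSB 0.251% ± 0.0184 in siRNA-1 and 0.0591% ± 0.0397 in siCTRL (SD, n = 3 each, exact permutation p = 0.1 for each). The summed level of the FOS genes was 155, 160.3 and 153 CPM per kb in siRNA-1 libraries, against 204, 160.5 and 212 in siCTRL libraries, where siCTRL 2 was almost level with siRNA-1 replicate 2. The exact permutation p was 0.1, adjusted p = 0.2 over both families, and the log2 ratio of the means was -0.30 with all libraries and -0.41 without siCTRL 2. RNA shares say nothing of the make-up of the dimers.

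**Figure D3:**
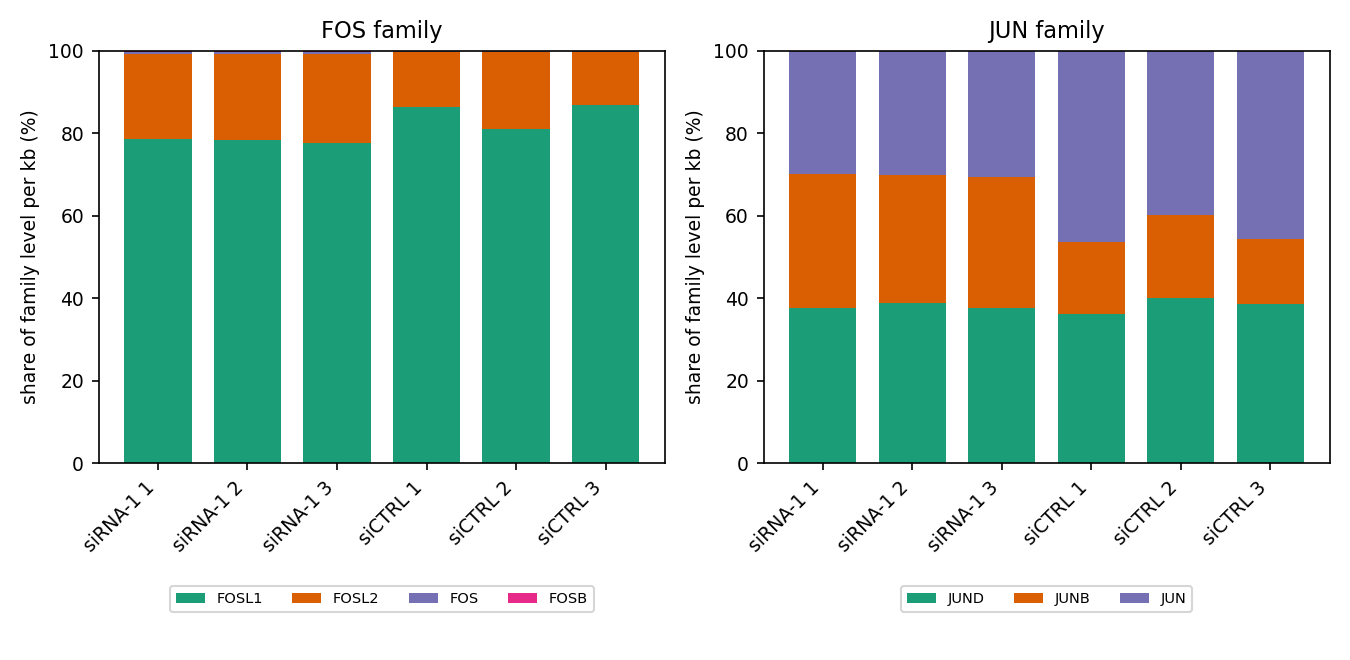
Share of each gene in the summed level per kb of its family (%), stacked for each library, siRNA-1 libraries first. JUNB holds 31.0% to 32.6% of the JUN family in siRNA-1 and 15.7% to 19.99% in siCTRL libraries, FOSL1 holds most of the FOS family in all, and FOS and FOSB are too low to be seen well.

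Gene structure was compact, as is known of this class. On GRCh38 in GENCODE 29 the 10 genes spanned a median of 3683 bases, against 33799 over genes tested, and 4 of them (JUN, JUNB, JUND and IER3) had a single exon, as had 2.37% of genes tested. Their transcripts had a median GC content of 57.2%, against 48.5%. With GC content and length corrected for, all 9 calls were kept, with log2 fold changes of 0.68 for JUNB and -0.19 for JUND (adjusted p = 0.0611, edgeR).

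All 10 are protein-coding genes. On the plus strand lie FOS (ENSG00000170345, chromosome 14, 75278774 to 75282230), FOSB (ENSG00000125740, chromosome 19, 45467995 to 45475179), JUNB (ENSG00000171223, chromosome 19, 12791496 to 12793315), FOSL2 (ENSG00000075426, chromosome 2, 28392448 to 28417312), EGR1 (ENSG00000120738, chromosome 5, 138465490 to 138469315) and MYC (ENSG00000136997, chromosome 8, 127735434 to 127741434). On the minus strand lie FOSL1 (ENSG00000175592, chromosome 11, 65892049 to 65900573), JUN (ENSG00000177606, chromosome 1, 58780788 to 58784327), JUND (ENSG00000130522, chromosome 19, 18279760 to 18281622) and IER3 (ENSG00000137331, chromosome 6, 30743199 to 30744554).

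Some genes outside the group followed the same course over the 6 libraries, as measured by the Euclidean distance between centred log2 CPM values. The closest to JUN was CAVIN3 (distance 0.07), to JUNB DMPK (0.08), to FOSL1 CTSA (0.06), to FOSL2 ARHGAP35 (0.03) and to MYC RRAD (0.05). IER3 was closest to ABCB9 (0.08), EGR1 to TIMP4 (0.18), FOS to KLHDC8B (0.14), JUND to PASK (0.05) and FOSB to ADSS1 at a distance of 1.05. FOSB thus had no close match among genes at a mean log2 CPM of at least 1, a level above its own mean of 0.67. Its few counts, from 2 to 34 per library, limit this comparison. Each match was picked as the nearest of all such genes, with no background distance computed, so small distances are not evidence of a link. Among the 10 genes themselves, JUN and MYC were the nearest pair (0.19) and FOSB and EGR1 the farthest (3.96).

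Other bZIP genes, among them partners of JUN or FOS, split: of 14 tested genes 4 rose, 3 fell and 7 did not pass. In this list 50% were called, against 62.5% of all genes tested, and the median log2 fold change was 0.02. Pairing of their proteins was not measured. CREM, a cAMP-responsive factor, rose to 48.1 ± 2.17 CPM in siRNA-1 cells, against 27.3 ± 0.943 CPM in siCTRL cells (1.76-fold, adjusted p = 1.51e-06, edgeR). The small MAF genes MAFG (1.56-fold, adjusted p = 2.87e-06) and MAFK (1.43-fold, adjusted p = 0.000111) rose too, and MAFF, the other small MAF gene, was not called (log2 fold change 0.02, adjusted p = 0.853). JDP2, a repressor that dimerises with JUN and was picked for mention after its values were seen, fell to 17.9 ± 3.48 CPM in siRNA-1 cells, against 37.5 ± 8.93 CPM in siCTRL cells (adjusted p = 0.000172). ATF3, itself an immediate early gene, had 18.8 CPM in siRNA-1 and 20.02 CPM in siCTRL cells, with no call (adjusted p = 0.409).

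Other immediate early genes also moved both ways. Of 26 tested genes 10 rose, 12 fell and 4 did not pass (84.6% called, against 62.5% of all genes tested, median -0.18). The YAP- and SRF-responsive matricellular genes CCN2 and CCN1 fell, CCN2 to 85.9 ± 3.00 CPM in siRNA-1 cells, against 328 ± 36.6 CPM in siCTRL cells (3.82-fold, adjusted p = 3.84e-09), and CCN1 by 2.21-fold (adjusted p = 9.11e-08, edgeR). DUSP1, a phosphatase of JNK, p38 and ERK, rose to 34.8 ± 2.19 CPM in siRNA-1 cells, against 14.2 ± 0.671 CPM in siCTRL cells (2.45-fold, adjusted p = 1.96e-07). NR4A1, an orphan nuclear receptor also picked after its values were seen, rose to 5.95 ± 0.884 CPM in siRNA-1 cells, against 1.32 ± 0.162 CPM in siCTRL cells (4.48-fold, adjusted p = 3.83e-06). The EGR1 relatives EGR2, EGR3 and EGR4 had too few counts to test, with 47, 35 and 9 counts over all libraries. At a mean of 100 counts or more, where 22 of these genes were tested, 5 rose and 13 fell.

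Upstream of these promoters, the SRF gene itself had 143 ± 1.85 CPM in siRNA-1 and 131 ± 6.36 CPM in siCTRL cells and was not called (log2 fold change of 0.13 with adjusted p = 0.0637, edgeR). Of its 5 cofactor genes 2 rose and 2 fell. With SRF itself, 66.7% of this list was called, against 62.5% of all genes tested. ELK3, a ternary complex factor that represses until ERK acts on it, fell to 45.3 ± 1.32 CPM in siRNA-1 cells, against 139 ± 9.81 CPM in siCTRL cells (3.06-fold, adjusted p = 4.13e-09). The actin-regulated coactivator gene MRTFB fell 1.71-fold (adjusted p = 5.53e-05), and ELK1, the ternary complex factor that activates on ERK signals, rose 1.33-fold (adjusted p = 0.000221). Among 14 kinase genes upstream of AP-1, 6 rose and 7 fell (92.9% called, against 62.5% of all genes, median -0.11), and 4 fell without siRNA-1 replicate 2. RPS6KA4, which encodes the nuclear kinase MSK2, fell to 36.6 ± 2.38 CPM in siRNA-1 cells, against 103 ± 7.61 CPM in siCTRL cells (2.81-fold, adjusted p = 1.82e-08). MAP2K4, a kinase that activates JNK, rose 1.84-fold (adjusted p = 7.94e-08).

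Genes known as AP-1 targets were mostly lower: of 21 tested 15 fell, 4 rose and 2 did not pass. In this list 90.5% were called, against 62.5% of all genes tested. The median log2 fold change was -0.70, against 0.01 over all genes. PLAU, the urokinase gene, had 199 ± 1.08 CPM in siRNA-1 and 613 ± 54.4 CPM in siCTRL cells, and VEGFA, an angiogenic factor, had 199.7 ± 5.67 CPM in siRNA-1 and 528 ± 35.2 CPM in siCTRL cells (SD, n = 3 each). They fell 3.08- and 2.64-fold, with 5.07e-09 as the highest adjusted p (edgeR). MMP1, the classical AP-1-driven collagenase gene, named after its values were seen, fell 2.88-fold (adjusted p = 4.44e-07). FST, EZR, HMOX1 and IL11 rose, and HBEGF (log2 fold change -0.04, adjusted p = 0.655) and SPP1 (-0.39, adjusted p = 0.279) were not called. These genes answer to many other factors, and no link to AP-1 was measured. The list was written with earlier results of these data known, so its direction is not independent of them.

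Genes known as MYC targets were mostly higher, while the MYC transcript fell. Of 26 tested 18 rose, 4 fell and 4 did not pass (84.6% called, against 62.5% of all genes tested). Their median log2 fold change was 0.30, against 0.01 over all genes. The ribosome assembly genes RRP12 (93.4 ± 3.85 CPM in siRNA-1 and 48.9 ± 1.54 CPM in siCTRL cells, 1.91-fold, adjusted p = 1.46e-07) and GNL3 (1.65-fold, adjusted p = 3.12e-07, edgeR) rose, and WDR43, of the same process, fell to 41.2 ± 2.00 CPM in siRNA-1 cells, against 73.4 ± 3.04 CPM in siCTRL cells (1.78-fold, adjusted p = 6.11e-07). The other falls were those of LDHA, TFRC and CAD. Many genes on this list serve ribosome assembly, all answer to other factors too, and MYC activity was not measured. Earlier results of these data were known when this list, too, was written. In the network of MYC partners and antagonists 3 of 10 tested genes rose and 4 fell (70% called, against 62.5% of all genes tested, median 0.02). The antagonists MXI1 (23.3 ± 0.737 CPM in siRNA-1 and 63.5 ± 2.70 CPM in siCTRL cells, 2.73-fold, adjusted p = 1.23e-08) and MXD4 (2.20-fold, adjusted p = 1.17e-07) fell, and MLXIP, a glucose-sensing factor of the network, rose 1.73-fold (adjusted p = 2.33e-06). MAX rose slightly (log2 fold change 0.17, adjusted p = 0.0411), close to the threshold, and MYCN had no count. The number of rises in this network was 2 without siCTRL 1, siCTRL 2 or any 1 siRNA-1 library, with DESeq2 size factors, by the DESeq2 Wald test, with genes under a mean of 100 counts left out, and at a threshold of 0.01, where the call of MAX was lost. It was 4 with no scaling beyond library size.

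Ubiquitin ligases and deubiquitinases that act on JUN or MYC protein were higher or did not pass. Of 10 tested 5 rose and 0 fell by edgeR (50% called, against 62.5% of all genes), with 0 lower at an unadjusted p under 0.05 and 0 lower by DESeq2 or limma-voom, while 1 fell without siCTRL 1 and 1 at a mean of 100 counts or more. COP1, a ligase for JUN, had 75.2 ± 1.32 CPM in siRNA-1 and 49.0 ± 2.55 CPM in siCTRL cells (1.54-fold, adjusted p = 4.44e-06). FBXW7, the receptor subunit of a ligase for JUN and MYC, rose 1.68-fold (adjusted p = 3.88e-05) and STUB1, a chaperone-linked ligase, rose 1.25-fold (adjusted p = 0.000958). Of 9 genes for proteins that bind AU-rich elements, 2 rose and 3 fell (55.6% called, against 62.5% of all genes tested, median 0.03). In the ZFP36 family of decay factors, ZFP36L1 fell to 134 ± 5.91 CPM in siRNA-1 cells, against 246 ± 9.54 CPM in siCTRL cells (1.84-fold, adjusted p = 1.30e-07), ZFP36L2 fell 1.68-fold (adjusted p = 6.88e-05) and ZFP36 rose 1.92-fold (adjusted p = 4.21e-05, edgeR). The number of rises in this short list was 1 without siRNA-1 replicate 1, siRNA-1 replicate 3 or siCTRL 3 and by the DESeq2 Wald test, and 4 with no scaling beyond library size.

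**Figure D4:**
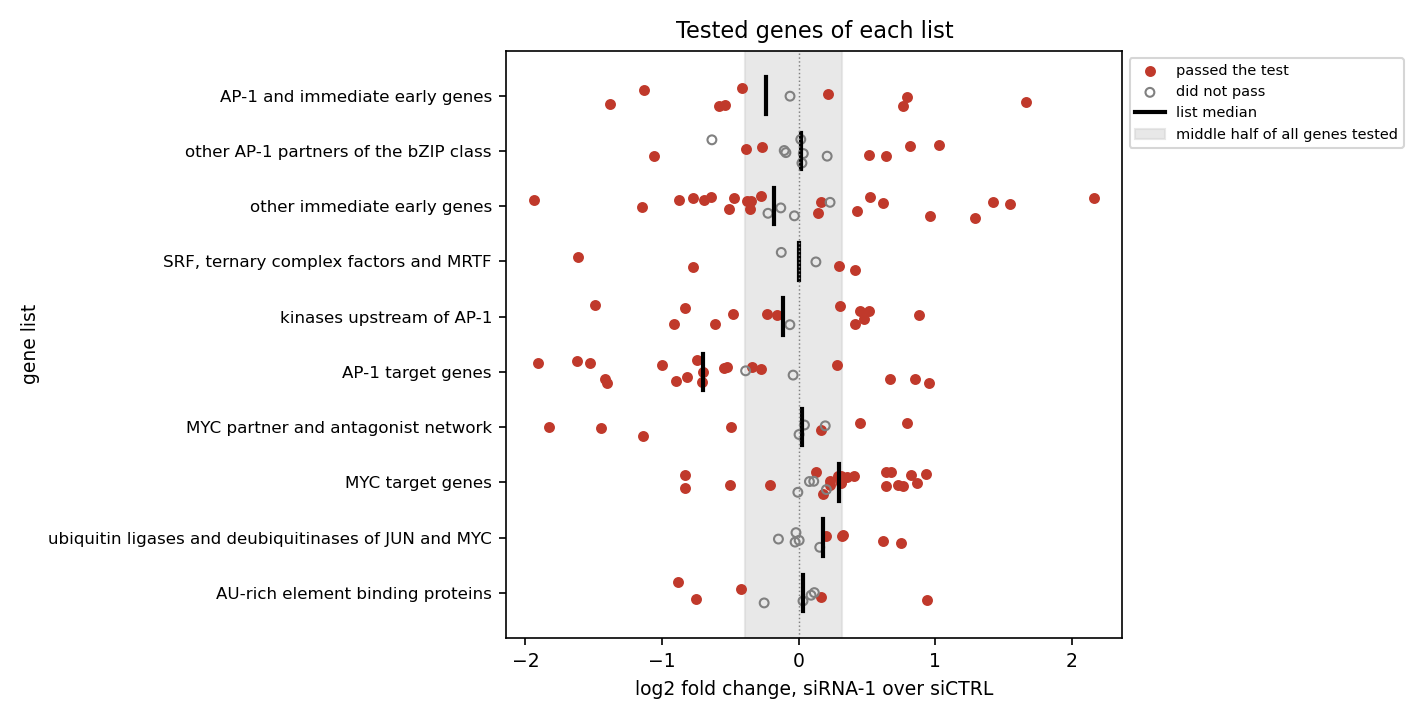
Log2 fold change of each tested gene, siRNA-1 over siCTRL, in the 10 genes and the related lists, with filled red points for genes that passed the test, open grey points for the others, a black bar for the list median and a grey band for the interquartile range of all genes tested (-0.40 to 0.32). AP-1 target genes lie mostly left of 0 and MYC target genes mostly right, with medians of -0.70 and 0.30, and the other lists hold points on both sides.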

How the data were processed

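RNA sequencing libraries of 6 MDA-MB-231 cultures were made with the NEBNext Ultra kit from total RNA, per the labels' protocols. The authors deposited raw read counts per Ensembl gene from HTSeq; Trimmomatic, STAR, kallisto and hg38 are also named in the submitters' processing notes, and for versions, annotation and strandedness the sources used here give nothing. Without strand, reads of a gene and of an antisense partner cannot be separated. Identifiers were matched to symbols and GENCODE 29 models without their version suffix. In R 4.3.3, edgeR 4.0.16 kept genes by filterByExpr (10 counts, total 15), scaled by TMM and tested siRNA-1 against siCTRL by the quasi-likelihood test, two-sided, with Benjamini-Hochberg adjustment over 12440 genes. SEs were derived from F statistics, with 95% intervals. Family shares used exact permutation tests. The same steps were tested on simulated data. Alternatives included DESeq2 1.42.0 and limma 3.58.1. The 10 genes and all lists were chosen with earlier results of these data known. All 10 were named, with the 3 smallest adjusted p in each related list and the nearest pattern (mean log2 CPM of at least 1) to each gene; some of these are not reported here. Patterns used log2 CPM with a prior count of 2.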

Additional observations from a re-analysis of the deposited data

How the results depend on the processing

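Of 138 recalculated log2 fold changes of the 10 genes, 137 kept their direction and side of the threshold. The exception was JUND, never called, whose value was -0.06 with all libraries and from -0.17 (without siCTRL 1) to 0.0193 (without siCTRL 2) with 1 left out. The numbers of higher and lower genes, 4 and 5, were kept under DESeq2 size factors, library size only, no filter, the DESeq2 Wald test (FOS adjusted p = 0.0478), limma-voom, the correction for GC content and length and the loss of any 1 library. At a mean of at least 100 counts 2 genes were higher, since FOS and FOSB were not tested, and at a threshold of 0.01 there were 3. With the replicate number as a block, 4 were higher and 5 lower, and no call on the 10 genes changed. The labels do not say whether same-numbered libraries were paired. Deviations of same-numbered libraries correlated at 0.08, -0.08 and -0.09, and only siRNA-1 replicate 1 correlated best with its own number. With so few libraries, whose deviations within a group offset each other, these values cannot settle pairing. With counts not divided by length, the log2 ratio of the FOS family was -0.12 and that of the JUN family -0.18, and differences in share were 0.338 points for FOSB, -10.7 for FOSL1, 10.1 for FOSL2, 12.1 for JUNB and 2.50 for JUND, the last with the opposite sign. JUND's share difference was -0.31 with all libraries, and from -1.37 to 0.59 when 1 library was left out. Depth limits FOS and FOSB.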
